A study of Populus tremula x Populus alba with 7 samples.

Results

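The regions described here hold a ChIP-seq peak of the zinc finger proteins PtrC2H2ZF1 or PtrC2H2ZF2, or of PtrNAC127, and lie outside the sites that PtrBLH and PtrCORONA both occupied. They were chosen by which peak lists had a peak there: the intervals of all 6 lists were merged where they shared 1 bp or more, and a merged region on a chromosome was kept when it held a peak of at least one of these 3 lists and did not hold both a PtrBLH and a PtrCORONA peak. This left 162 regions with 449 peaks, of 5498 merged regions with 9442 peaks in all and of 677 chromosomal regions with a zinc finger or PtrNAC127 peak. The presence or absence of a list in a region is therefore partly what the choice fixed, and the values below are given as a description, with no test.

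Each of the 6 TFs, PtrC2H2ZF1, PtrC2H2ZF2, PtrNAC127, PtrARF5a, PtrBLH and PtrCORONA, was fused to GFP behind the CaMV35S promoter and expressed transiently in infiltrated plants of the poplar hybrid Populus tremula × alba. Leaves were fixed in 1% formaldehyde over 15 min, and a monoclonal antibody to GFP was used to pull down the chromatin. The control for every list was the same kind of chromatin without antibody, called input here. There was 1 library per TF and no replicate, which means that TF and library cannot be told apart, and a promoter active in nearly all cells sets the level of each protein. Positions come without gene features, since no sequence or gene models of this genome were used.

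The 6 proteins belong to 5 families. C2H2 zinc finger proteins bind DNA through small β-β-α modules, each folded around a zinc ion. NAC proteins are a family found in plants whose conserved N-terminal domain binds DNA, and several of them switch on the building of secondary cell walls in wood. PtrARF5a is an auxin response factor, the kind of protein through which the hormone auxin changes transcription. PtrBLH is a BEL1-like homeodomain protein, a type that works in pairs with KNOX proteins, and PtrCORONA is named after a class III HD-ZIP protein that patterns meristems and vascular tissue in Arabidopsis.

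A peak came with a fold enrichment, which is the pileup of ChIP reads over the local background expected from the input, each raised by 1, and with a −log10 p and −log10 q. Solving the fold enrichment and the −log10 p of a peak together gave the whole number of reads piled up at its summit and the background behind it. For 9439 of 9442 peaks the −log10 p came back within 0.001. The backgrounds of a list were mostly whole multiples of 1 step, which is the depth of that ChIP library relative to the input: 0.233 for PtrC2H2ZF1, 0.21 for PtrC2H2ZF2, 0.527 for PtrBLH, 0.781 for PtrCORONA and 1.07 for PtrNAC127. The zinc finger libraries were thus the shallowest and the PtrNAC127 library the deepest of these 5. Dividing by the step gave the background at a summit in reads of the input itself, called input pileup here. It is either the pileup of the input at the summit or an average over a wider window. Values well under 1 read are such averages or the lowest background of the list. Dividing the summit reads by the depth gave a coverage, background reads included, that can be set side by side between lists. The PtrARF5a list, whose shortest peak was 167 bp against 284 to 297 bp in the other lists, had backgrounds on another scale, so for it only summit reads and fold enrichment are given. Counting intervals are exact at 95% (Poisson for reads, Clopper-Pearson for shares, order statistics for medians). They cover counting error only, and neighbouring regions are not independent.

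PtrNAC127 was the main occupant of the selected regions. A PtrNAC127 peak was present in 136 of the 162 regions (84%, 77.4 to 89.2%), where 11.8% of all 5369 chromosomal regions had one. PtrC2H2ZF2 followed with 60 regions (37%, background 10.4%) and PtrC2H2ZF1 with 35 (21.6%, background 9.85%). Both zinc fingers together were found in 28 regions (17.3%, 11.8 to 24%), against 9.65% of chromosomal regions. For these 3 lists the choice of the regions sets the excess over the background. Of the lists the choice did not ask for, PtrARF5a had a peak in 108 regions (66.7%, 58.8 to 73.9%), below its share of 97.2% over all chromosomal regions, which is set by the length of its list. PtrCORONA was present in 92 regions (56.8%, 48.8 to 64.5%, background 20.6%), but PtrBLH in only 16 (9.88%, 5.75 to 15.5%, background 18.1%). These backgrounds include regions without a zinc finger or PtrNAC127 peak. All 515 zinc finger or PtrNAC127 regions that the rule left out held both PtrBLH and PtrCORONA. Among such regions the rule therefore lowers both shares, and 56.8% is no enrichment of PtrCORONA. The rule admits either homeodomain protein alone, so it fixes that they do not occur together but not their order. The PtrBLH library was shallower than the PtrCORONA library, with a depth of 0.527 against 0.781, and how far this sets the order was not tested.

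The lists combined in 21 ways, and the combinations fell into 2 families. PtrNAC127 with PtrARF5a and PtrCORONA was the most common, in 47 regions. Another 23 regions held PtrNAC127 alone and 16 held it with PtrARF5a. With a zinc finger added, 16 regions held every list except PtrBLH, and 14 held PtrC2H2ZF2, PtrNAC127, PtrARF5a and PtrCORONA. The other family had no PtrNAC127: both zinc fingers with PtrBLH in 7 regions, and PtrC2H2ZF2 with PtrBLH in 5. Of the 92 regions with PtrCORONA, 91 also held PtrNAC127, whereas of the 16 with PtrBLH only 1 did. Over both families, 29 regions had a peak of 1 list only, 34 of 2 lists, 62 of 3, 21 of 4 and 16 of 5.

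**Figure D1:**
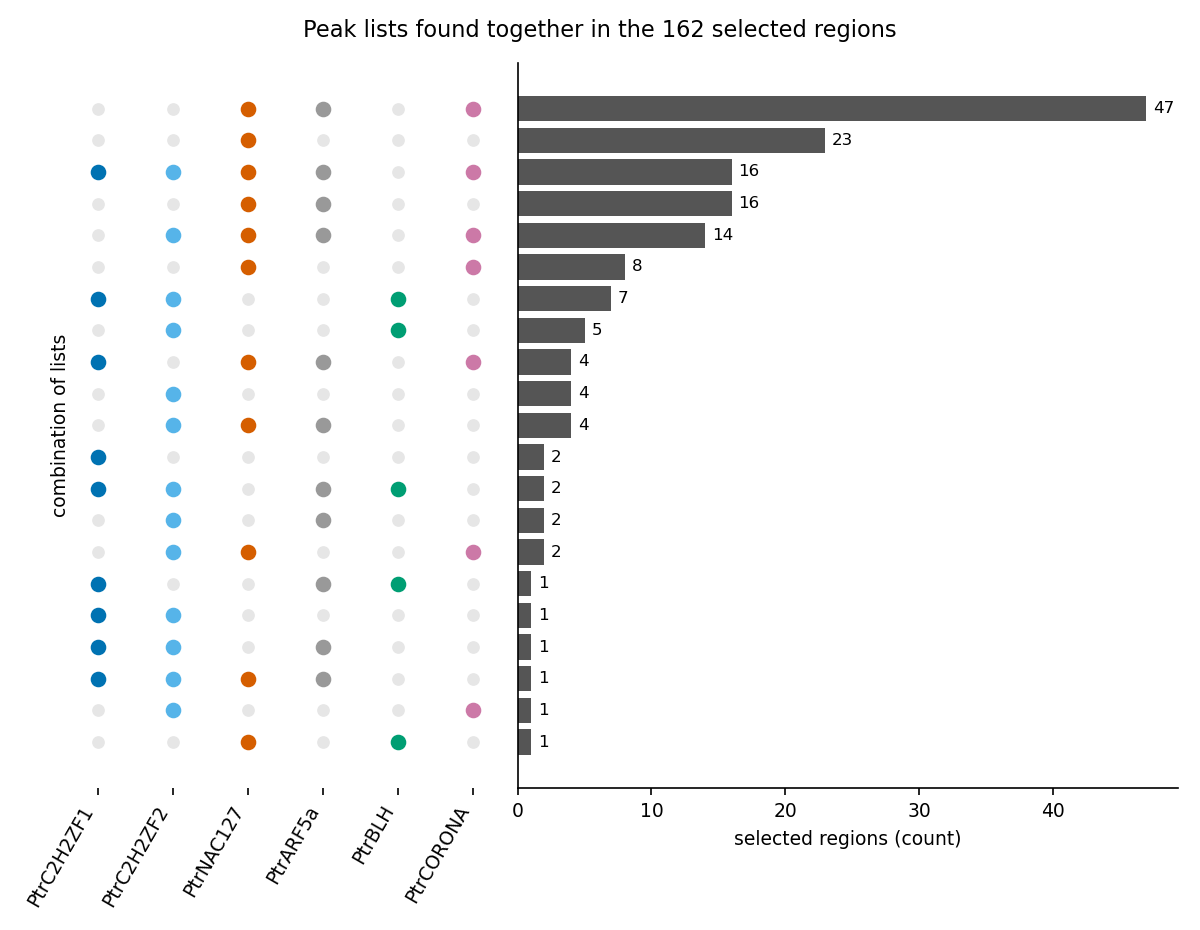
Combinations of peak lists in the 162 selected regions. Each row is a combination, coloured dots mark the lists present (zinc fingers, PtrNAC127, PtrARF5a, PtrBLH, PtrCORONA from left to right), and bars give the number of regions; PtrNAC127 with PtrARF5a and PtrCORONA leads with 47, and PtrBLH appears almost only in combinations without PtrNAC127.

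The 136 PtrNAC127 peaks were thin in reads but clear over the input. Their summits held 19 reads (median, 16 to 20), from 5 to 83, against 113 (100 to 125) for the PtrNAC127 peaks of the 476 chromosomal regions that all 6 lists shared. The input pileup under them was lower too, with a median of 0.638 reads against 7. With both lower, the fold enrichments lay closer together: 9.55 (9.03 to 10.5) in the selected regions and 12.5 (11.9 to 13.2) in the shared ones. By −log10 q, with a median of 14.2 against 79.6, only 1 of the 136 lay in the upper part of the PtrNAC127 list when it was split at its middle rank, and 80 were among its 100 lowest. The input was low at these places: 28 of the 136 summits stood on the lowest background of the list, 0.131 reads, and the highest input pileup was 23. Backgrounds at that lowest level carry no local reads, and why the input was low was not tested.

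Of the 5 PtrNAC127 peaks with the largest −log10 q, 4 came from regions that only PtrBLH lacked, and the third, on chromosome 13, from a region that also lacked PtrC2H2ZF1. At chr11:7839316-7839869 the PtrNAC127 summit held 39 reads (27.7 to 53.3) over an input of 0.131, a fold enrichment of 33.1 with a −log10 q of 72.4. The peak at chr8:9652672-9653201 followed with 54 reads (40.6 to 70.5) over 1.3 and a fold enrichment of 22.3. In that region PtrC2H2ZF2 also had its largest fold enrichment of all its selected peaks, 11.7 from 14 reads (7.65 to 23.5), and PtrC2H2ZF1 reached 9.15 from 11 reads (5.49 to 19.7). The next peaks complete the 5 with the largest −log10 q, at chr13:1061622-1062150 (fold enrichment 21.5), chr13:13585360-13585909 (21.3) and chr9:2113521-2114044 (19.9), from 23 to 27 reads each. In none of the 5 did the input pileup exceed 1.3 reads.

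PtrNAC127 peaks stood higher where more lists shared the region. With PtrNAC127 alone (23 regions) the median fold enrichment was 8.36 from 16 reads. It was 8.74 from 16 reads with 2 lists (25 regions), 10.2 from 20 reads with 3 lists (53), 12.9 from 19 reads with 4 (19) and 14.2 from 25 reads with 5 (16). The ranges overlapped throughout: 5.84 to 11.6 with PtrNAC127 alone and 3.27 to 33.1 with 5 lists. With a zinc finger peak in the region (41 regions) the median fold enrichment of PtrNAC127 was 11.6 (quartiles 8.43 and 15.1), and without (95 regions) 9.14 (7.72 and 10.8). The PtrNAC127-only peak with the largest −log10 q, 18.8, lay at chr13:7935114-7935612 and had 26 reads (17 to 38.1) over an input of 1.42. Next came chr12:11265041-11265337, with 15 reads over 0.29 and a fold enrichment of 11.6, the largest of the PtrNAC127-only peaks.

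**Figure D2:**
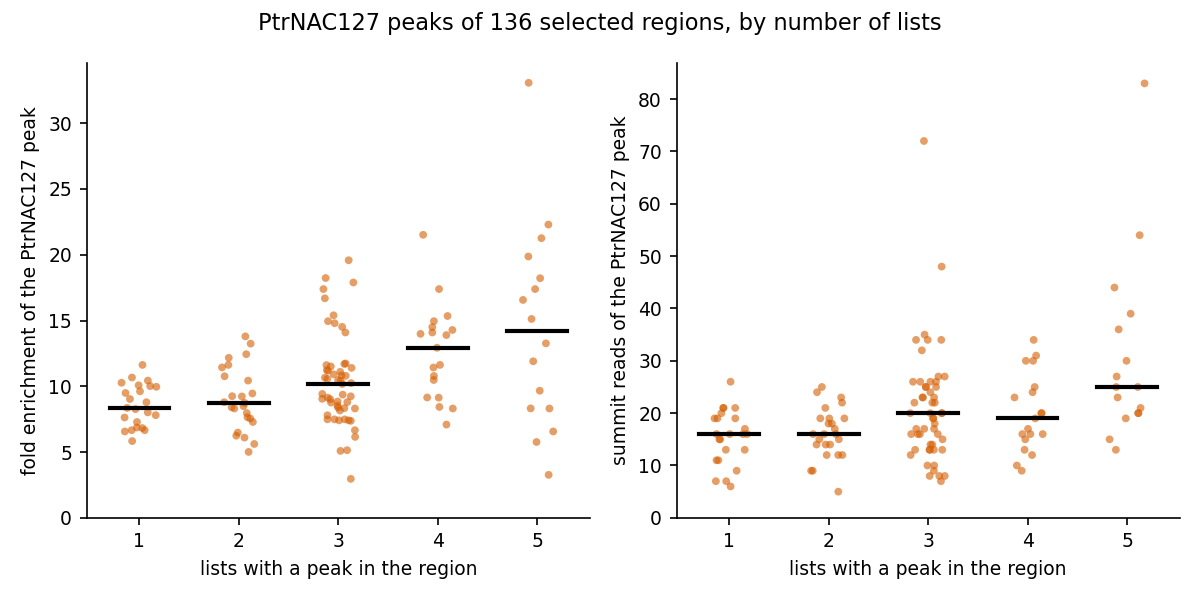
Fold enrichment (left) and summit reads (right) of the PtrNAC127 peaks in 136 selected regions, by the number of lists with a peak in the region. Each point is a peak and bars are medians; the median fold enrichment goes from 8.36 with 1 list to 14.2 with 5, with overlapping ranges.

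PtrCORONA and PtrARF5a were the most frequent companions of PtrNAC127 in these regions. The PtrCORONA peaks in PtrNAC127 regions had 14 summit reads (12 to 16) and a fold enrichment of 8.98 (7.86 to 10.2), and the PtrARF5a peaks had 12 reads (10 to 13) and 8.58 (7.64 to 9.15). Per depth, PtrCORONA coverage was 0.972 of that of PtrNAC127 (median of 91 regions, 0.933 to 1.06), where it was 1.25 (1.24 to 1.26) in the regions of all 6 lists. Across the 91 regions, which share the input at each site, the Spearman's rho of the fold enrichments of PtrNAC127 and PtrCORONA was 0.72, against 0.85 in the 476 regions of all 6 lists. For PtrNAC127 and PtrARF5a it was 0.52 (102 regions) against 0.7. Summits lay close together, at a median distance of 6 bp for PtrNAC127 and PtrCORONA (91 regions) and 7.5 bp for PtrNAC127 and PtrARF5a (102 regions). The same distances were 6 and 8 bp in the regions of all 6 lists.

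The zinc fingers behaved differently from PtrCORONA at these sites. Where all 6 lists had a peak, coverage per depth was 3.49 times that of PtrNAC127 for PtrC2H2ZF1 (3.4 to 3.58) and 3.71 times for PtrC2H2ZF2 (3.6 to 3.8). In the selected regions with both peaks it was 1.2 times for PtrC2H2ZF1 (21 regions, 0.92 to 1.84) and 1.56 times for PtrC2H2ZF2 (37 regions, 1.32 to 1.81). Only 1 of the 21 and 2 of the 37 exceeded the lower quartile of the regions of all 6 lists, 2.77 and 2.98. These zinc finger peaks rested on few reads, with a median of 6 for each protein; 9 of the 21 PtrC2H2ZF1 and 14 of the 37 PtrC2H2ZF2 peaks had 5 or fewer. A ratio could be taken only where the zinc finger peak had passed its threshold. With the 5-read peaks and those below left out of the merge, the ratios were 1.53 and 1.74, and with a −log10 q of at least 10 in the zinc finger and PtrNAC127 lists 1.93 each.

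**Figure D3:**
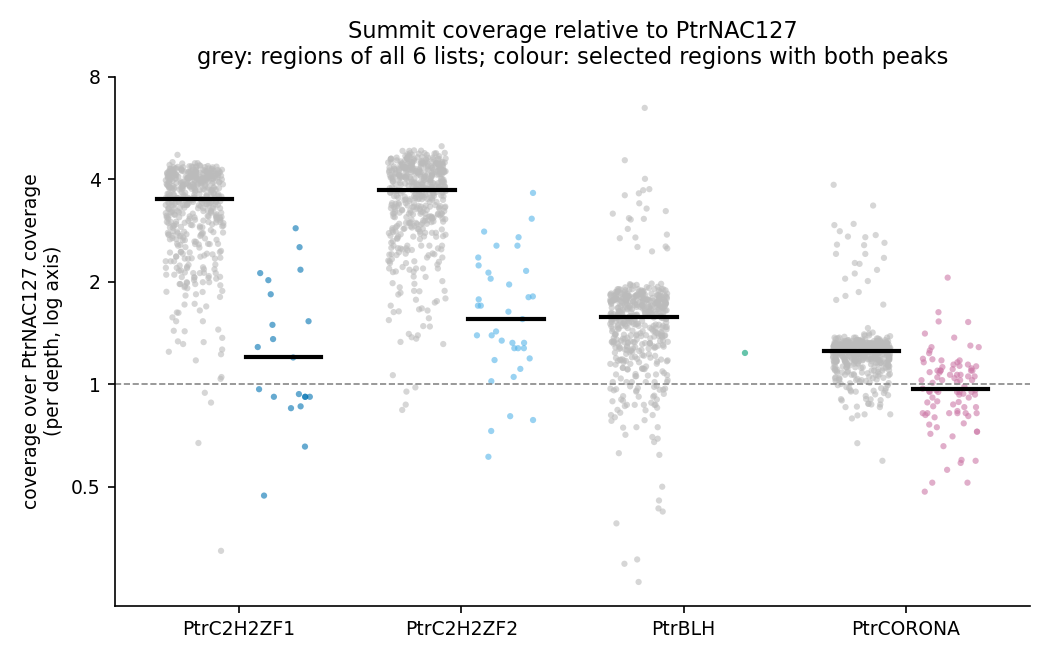
Summit coverage of PtrC2H2ZF1, PtrC2H2ZF2, PtrBLH and PtrCORONA, per depth, over that of PtrNAC127 in the same region, on a log axis. Grey points are the 476 chromosomal regions of all 6 lists, coloured points the selected regions with both peaks, bars are medians, and the dashed line marks equal coverage; the zinc finger medians are 3.49 and 3.71 in grey and 1.2 and 1.56 in colour.

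Whether the lists that were missing at the PtrNAC127 sites could have been called at their depth was worked out from each site. For every missing list, the summit reads needed to reach the smallest −log10 p of that list over the local input were compared with the reads it would have had at the coverage of PtrNAC127. A PtrC2H2ZF1 peak needed 5 reads (median of 115 regions), and equal coverage would have given 3.7, so that 98 of the 115 regions fell short. For PtrC2H2ZF2 87 of 99 fell short. At equal coverage a zinc finger peak was thus not detectable at this depth in most of these regions. With the ratio seen in the regions of all 6 lists, however, the zinc finger reads would have come to 12.9 and 12.3 (medians), above the need in all 115 and all 99 regions. Poisson error was not allowed for at that ratio, and some margins were thin, such as 3.8 PtrC2H2ZF1 reads against 3 at chr4:9869966-9870295. In the selected regions with both peaks the ratios were lower, 1.2 and 1.56, so these 2 counts hold only at the higher ratio. For PtrBLH and PtrCORONA the rule itself fixes the absence of the former in the 91 regions that hold the latter, so only the 44 PtrNAC127 regions with neither are read here. In 41 of the 44 the PtrBLH reads at equal coverage reached the need, and in all 44 the PtrCORONA reads did. The margins at equal coverage were thin: allowing for Poisson error, the need would be met in at least 95% of draws in 8 regions for PtrBLH and 31 for PtrCORONA. With the ratio of the regions of all 6 lists, the medians were 12.4 reads for PtrBLH and 14.6 for PtrCORONA. These reached the need in all 44 regions for each, again without allowing for Poisson error. These counts take the smallest called −log10 p as the threshold of a list.

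The 26 regions without PtrNAC127 were of 2 kinds, separated by the input. In 19 of them the input itself piled up to between 60 and 463 reads, with a median of 254, and in the other 7 it was at most 2. No region lay between 2 and 60. An input pileup of 50 or more was found in 3.62% of the 1438 chromosomal regions with a peak of a list other than PtrARF5a. It was found in 19 of the 162 selected regions (11.7%, 7.21 to 17.7%) and in 0 of the 136 with PtrNAC127 (0 to 2.68%). The contrast depends on the cut: from 20 reads, these counts were 21 of 162 (13%) and 2 of 136. In the 515 zinc finger or PtrNAC127 regions left out by the rule, the share was 3.5% from 50 reads and 19.6% from 20. Few chromosomal peaks of PtrNAC127 (4 of 636) or PtrCORONA (17 of 1109) had such an input. It was 30 of 535 for PtrC2H2ZF1, 36 of 567 for PtrC2H2ZF2 and 48 of 979 for PtrBLH. The highest input pileup under any chromosomal PtrNAC127 peak was 89.8 reads, against 536 to 552 in the zinc finger, PtrBLH and PtrCORONA lists.

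At these input-rich sites fold enrichments were small and read numbers large. The 12 PtrC2H2ZF1 peaks had fold enrichments of 1.99 to 4.59 (median 2.84) from 59 to 252 reads, and the 17 PtrC2H2ZF2 peaks 1.64 to 5.01 (median 2.43) from 67 to 225 reads. The 15 PtrBLH peaks were lower still, from 1.42 to 2.35 (median 1.79), with 122 to 407 reads. In every region with both, the coverage of the zinc finger exceeded that of PtrBLH, by 1.32 times for PtrC2H2ZF1 (median of 10 regions) and 1.35 times for PtrC2H2ZF2 (14 regions). These ratios were 2.29 and 2.45 in the regions of all 6 lists. Coverage counts background reads too, and the median input was 254 at the input-rich sites against 7 in the regions of all 6 lists. How far background sets the lower ratios was not tested. The PtrBLH peaks of the selected regions came almost entirely from input-rich sites, with 1 exception. That was a region with PtrNAC127 where PtrBLH had 14 reads over an input of 3. What raised the input at these places was not tested.

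**Figure D4:**
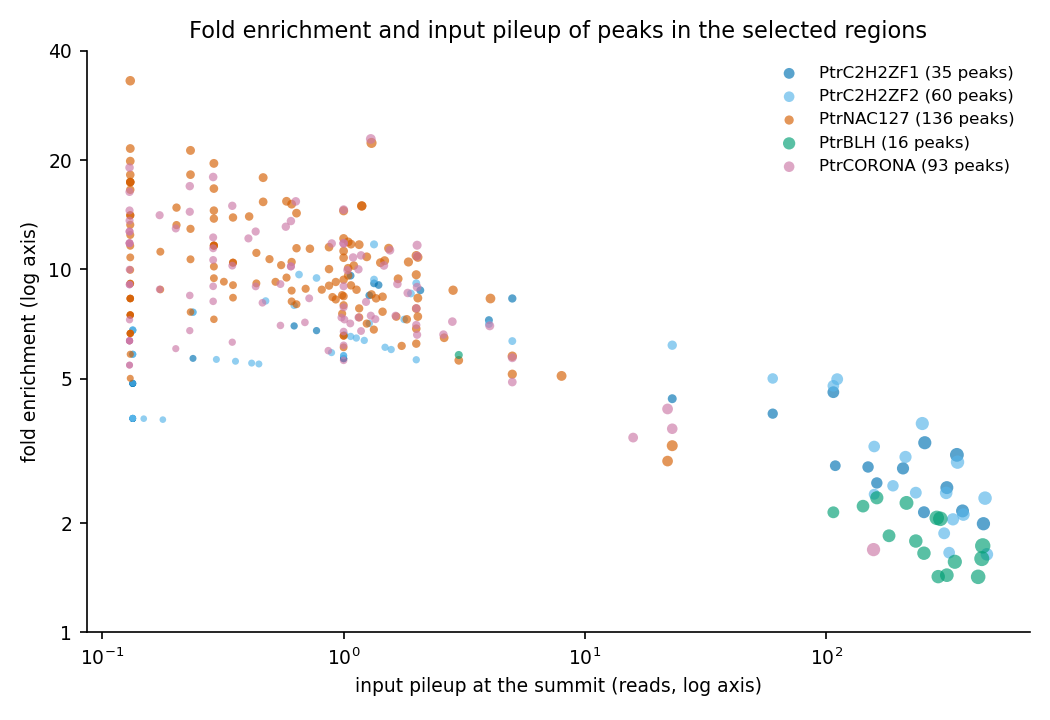
Fold enrichment against the input pileup, the background at the summit in input reads, for the peaks of 5 lists in the selected regions, both on log axes. PtrARF5a has no comparable input pileup. Larger points have more summit reads; PtrNAC127 and PtrCORONA peaks lie at inputs of 23 or less with 1 PtrCORONA exception at 157, and 15 of the 16 PtrBLH peaks lie above 100 at folds of 1.42 to 2.35.

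The zinc finger peaks with the largest −log10 q among the selected ones were all input-rich. PtrC2H2ZF1 led at chr13:14863423-14863982 with 252 reads (222 to 285) over an input of 348, at 3.08-fold enrichment with a −log10 q of 48.5. PtrC2H2ZF2 at the same place had 218 reads and a fold enrichment of 2.94. PtrC2H2ZF2 led at chr10:5228940-5229511 with 200 reads (173 to 230) over 250, at 3.76-fold enrichment with a −log10 q of 50.9, beside PtrC2H2ZF1 with 3.33, PtrBLH with 1.65 and PtrARF5a with 1.43. At chr15:14987071-14987596 the zinc fingers reached 4.59 and 4.78 and PtrBLH 2.14, over an input of 107 in all 3 lists.

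In 2 input-rich regions a zinc finger peak stood alone. A PtrC2H2ZF2 peak of 1563 bp at chr14:5363813-5365375, the widest selected region, had 120 reads (99.5 to 143) over an input of 111, at 4.98-fold enrichment with a −log10 q of 42.2. A PtrC2H2ZF1 peak at chr10:19876803-19877280 had 75 reads (59 to 94) over 109, with a fold enrichment of 2.88. At equal coverage the other zinc finger, PtrBLH, PtrCORONA and PtrNAC127 would have been called in both regions. For PtrBLH, PtrCORONA and PtrNAC127 this was fixed in advance. Their libraries were deeper than those of the zinc fingers, and their smallest −log10 p was lower (4.75 to 5.86 against 6.73 and 7.3). At the ratio of the regions of all 6 lists PtrNAC127 would have been short in both. It would have had 165 reads against 176 needed on chromosome 14 and 98.8 against 173 on chromosome 10. PtrBLH (74.1 against 92) and PtrCORONA (88.1 against 126) would have been short too on chromosome 10. That ratio counts background reads too and comes from regions with a median input of 7. On chromosome 10 its 98.8 PtrNAC127 reads lie below the input of 109, so the shortfall there cannot show whether a peak was detectable.

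PtrNAC127 would also have been called at all 19 input-rich sites at equal coverage. This too was fixed in advance by its deeper library and lower smallest −log10 p, so the count is no result about these sites. A peak there needed a fold enrichment of only 1.22 to 1.67, and at the coverage of the stronger zinc finger peak it would have had 618 reads (median) against 333 needed, enough in all 19. If PtrNAC127 had kept the ratio to the zinc fingers of the regions of all 6 lists, it would have had 167 reads, short in all 19. That ratio counts background reads too and comes from regions with a median input of 7. Here its 167 reads lie below the median input of 254, so this shortfall cannot show whether a peak was detectable. PtrCORONA, missing in 18 of these regions, would likewise have passed in all 18 at equal coverage and in 3 at that ratio. The same limits hold for both counts. In the 15 of them with a PtrBLH peak its absence is fixed by the rule.

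The remaining 7 regions had zinc finger peaks without PtrNAC127 over a low input, and all were thin. At chr16:12808484-12808783 PtrC2H2ZF2 had 10 reads (4.8 to 18.4) over an input of 0.772, a fold enrichment of 9.47, and PtrC2H2ZF1 7 reads and 6.78, beside PtrARF5a with 13 reads and 10.1. In the other 6, PtrC2H2ZF1 or PtrC2H2ZF2 had 3 to 7 reads. A PtrC2H2ZF2 peak at chr5:16237920-16238216 and another at chr18:15526012-15526308 were called on 3 reads each (0.619 to 8.77), with fold enrichments of 3.89 and 3.88 and no peak of any other list. At the coverage of the zinc finger peak, PtrNAC127, PtrBLH and PtrCORONA would have been called in all 7. Again their deeper libraries and lower smallest −log10 p fixed this in advance. At the ratio of the regions of all 6 lists PtrNAC127 would have been short in 6, PtrBLH in 2 and PtrCORONA in 1. The PtrNAC127 shortfalls included 9.64 reads against 10 at chr1:12666920-12667216, 9.64 against 11 at chr3:7189162-7189458 and 4.13 against 5 at chr5:16237920-16238216. Poisson error was not allowed for here, so at that ratio a call was uncertain rather than excluded.

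In the 28 regions with both zinc fingers, their summits were 15 bp apart (median, 8 to 32), against 6 bp (5 to 8) in the regions of all 6 lists, and PtrC2H2ZF1 coverage was 0.9 of that of PtrC2H2ZF2 per depth, ranging from 0.6 to 1.41, against 0.934 in the regions of all 6 lists. The median distance of PtrBLH summits was 14.5 bp to PtrC2H2ZF1 (3 to 44, 10 regions) and 47 bp to PtrC2H2ZF2 (10 to 115, 14 regions), where it was 8 and 7 bp in the regions of all 6 lists.

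The selected regions were short and scattered. Their median width was 514.5 bp, from 290 to 1563 bp, and 161 of them were under 1000 bp. They lay on all 19 chromosomes, from 3 on chromosome 19 to 19 on chromosome 5, with 18 of the latter holding PtrNAC127. The median gap between neighbours was 1300690 bp, and 6 of 143 gaps were 10000 bp or less. Those 6 formed 3 groups. The largest, at chr11:7192244-7196870, had 5 regions with 15 peaks in 4627 bp, all input-rich, each with PtrC2H2ZF2 and PtrBLH and 4 with PtrC2H2ZF1. From the first to the last of the 5, PtrC2H2ZF2 had 161, 102, 138, 225 and 110 reads over inputs of 314, 189, 213, 455 and 158. Its fold enrichments, 2.34 to 3.25, thus varied less than the reads, and the most reads gave the smallest fold enrichment. PtrC2H2ZF1 gave 1.99 to 2.83 and PtrBLH 1.73 to 2.35 in the same regions. The other groups were pairs: 2 regions at chr13:14751193-14754723, both input-rich, and 2 at chr12:12864992-12870426, both with every list except PtrBLH.

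**Figure D5:**
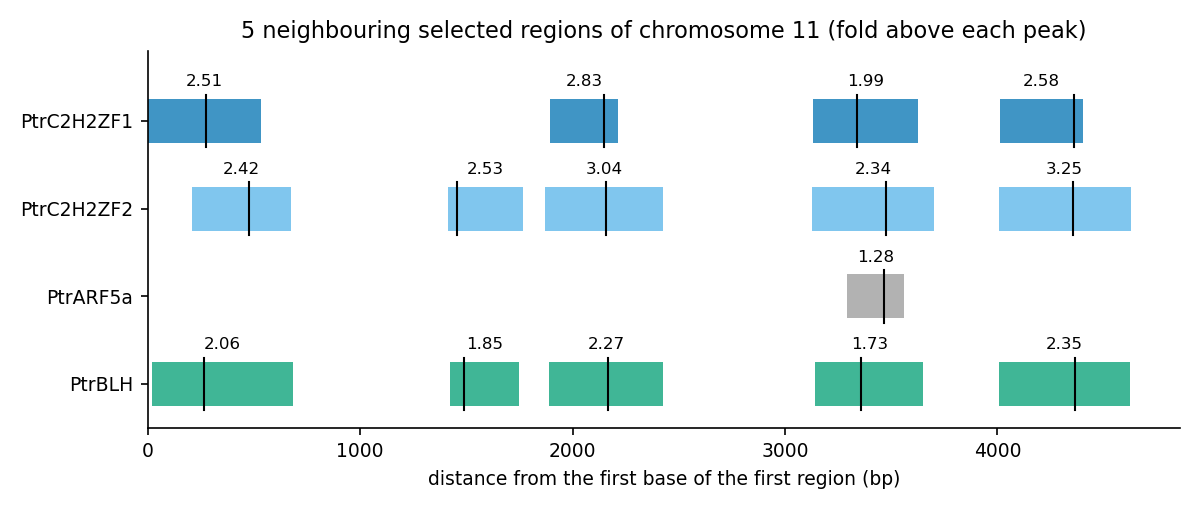
Peaks in the 5 neighbouring selected regions of chromosome 11, by distance in bp from the first base of the first region. Coloured boxes are peaks by list, black ticks their summits and the number above each its fold enrichment; PtrC2H2ZF2 and PtrBLH have a peak in all 5 and PtrC2H2ZF1 in 4.

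Some regions lay near the edge of the choice. The nearest missing homeodomain peak was 281 bp away, for the region at chr10:22175856-22176369 with PtrNAC127, PtrARF5a and PtrCORONA, beside a PtrBLH peak with a fold enrichment of 17.7. The region at chr11:7196250-7196870 lay 671 bp from the next PtrCORONA peak. That peak, at 1.27-fold enrichment with a −log10 q of 4.34, is the weakest by which a zinc finger or PtrNAC127 region was left out. It was followed by PtrCORONA peaks of 1.68 at chr6:11041370-11041924 and 1.3 at chr13:14866899-14869837, so that 2 of the 3 weakest stood within the same stretches of chromosomes 11 and 13 as selected regions and over inputs of 485 to 552 reads. For most regions the missing list was far away: the median gap was 156534 bp to the next PtrBLH peak (146 regions) and 120670 bp to the next PtrNAC127 peak (26 regions), with 2 and 0 of them within 1000 bp.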

How the data were processed

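Peaks of 6 TFs fused to GFP, from 1 ChIP-seq library each, were analysed; the seventh sample, the input, comes without a list. The authors used Trimmomatic, Bowtie2, SAMtools (which dropped duplicates and alignments of MAPQ below 30) and, for each library's peaks, MACS2 2.1.0, as the submitters' processing notes and the methods state. The deposited lists give a whole-number score (not used), a fold enrichment (a ratio to the input background), and a −log10 p-value and q-value per peak. Summit reads and background were solved from the fold enrichment and the −log10 p (tolerance 0.001, Poisson tail of MACS2), and the depth ratio is the step of the backgrounds (tolerance 0.01 of a step). A summit read may stand for a read or a read pair. Of the smallest backgrounds, 63.1 to 90.5% were whole steps, and the rest are averages over wider windows. The merge and the solving were tested on simulated data. Positions count from 1 and follow the lists.

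The regions, the lists compared and the alternatives were chosen with earlier results of these data known; the cut of 50 input reads was chosen after the input values were seen. Named regions are those with the largest −log10 q or fold enrichment per list, the list-only regions, the groups of neighbours within 10000 bp and the regions nearest the edge of the choice, or some of these; others are named to show a kind of region and were chosen after their values were seen. Alternatives changed the merge (50 bp of overlap, or gaps of up to 500 bp), the −log10 q (5 in every list, or 10 in the zinc finger and PtrNAC127 lists), the scaffolds, the use of PtrARF5a in the merge, the cut on the input pileup and the summit reads. Scripts ran in Python 3.11.15 with scipy 1.17.1 for the intervals, pandas 2.3.3 and numpy 2.4.6 for the tables, and matplotlib 3.10.9.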

Additional observations from a re-analysis of the deposited data

How the results depend on the processing

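Of 149 values recomputed under the alternatives, 137 stayed within 1.5 times the reported count or within the interval of the reported share or median. The number of regions was 127 to 173 under all alternatives, against 162. With a −log10 q of at least 10 in the zinc finger and PtrNAC127 lists, the share with PtrARF5a became 74.8%, with both zinc fingers 10.2%, with PtrNAC127 and no zinc finger 74.8% and with PtrCORONA 65.4%, and the median fold enrichment of PtrNAC127 was 10.5; this setting removes the weaker peaks by its construction. It also left 19 PtrC2H2ZF1 and 26 PtrC2H2ZF2 peaks, where 35 and 60 were reported, and 15 regions of 1 list, where 29 were. With peaks of over 5 summit reads, chosen after seeing the data, the share with PtrNAC127 and no zinc finger was 68.5%, against 58.6%. The number of regions without PtrNAC127 over an input pileup of at least 20, 50 or 100 was 19, 19 and 18. Over all 162 regions it was 21, 19 and 18. Among the 515 zinc finger or PtrNAC127 regions left out by the rule it was 101, 18 and 10. Input pileups at or near the lowest background carry no local reads and limit what the fold enrichment can show there. No paired analysis was possible because each TF has 1 library and no test was made.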
